A study of Drosophila melanogaster with 9 samples.

Results

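The genes described here are the cytochrome P450 and glutathione transferase genes of Drosophila melanogaster, followed through RNA sequencing of ovarian follicles. They were taken by symbol: every listed gene named Cyp with a family number and a subfamily letter, or Gst with a class letter and a number, apart from Cyp18a1. That gives 105 of the 15602 genes in each table, 84 P450 genes and 21 glutathione transferase genes. There are 3 groups of 3 libraries, and each library was made from poly(A) RNA of 100 follicles. The EcRts group holds stage 10 follicles of flies with a temperature-sensitive mutation of EcR, the receptor of the steroid hormone ecdysone, whose restrictive temperature began 2 days after eclosion. The wild-type stage 10 and wild-type stage 8 groups come from flies kept at 25 °C. All 9 samples carry the strain name Oregon R and an age of 6 to 14 days. No source used here names the EcR alleles or the restrictive temperature. The mutation and the shift applied to the whole fly, and genotype and temperature cannot be told apart. Nothing states that the 3 samples of a group are from separate females, so p-values below measure only the spread between these samples.

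P450 enzymes are haem proteins that put an oxygen atom from molecular oxygen into a substrate. Those of the endoplasmic reticulum receive electrons from the reductase Cpr, and those of the mitochondrion through a ferredoxin and its reductase. Insect P450 enzymes fall into clans: clans 3 and 4 are the large ones, with many enzymes for plant toxins, insecticides and fatty acids, while clan 2 and the mitochondrial clan also hold the enzymes that build ecdysone. Glutathione transferases couple glutathione to reactive or foreign molecules, and the Delta and Epsilon classes are the ones that have multiplied in insects. A stage 10 follicle has an oocyte in late yolk uptake, nurse cells, and an epithelium of somatic follicle cells that makes eggshell and also ecdysone. Levels are given in FPKM, a fragment count scaled by transcript length and library size, so that genes can be compared per length.

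Of the 105 genes, 49 reached 1 FPKM in at least 3 libraries and are called expressed here, and 31 of these reached it in all 9. The glutathione transferases were represented most fully, with 16 of 21 expressed, against 33 of 84 P450 genes. By class the expressed genes were 7 of 10 Delta, 8 of 10 Epsilon and the 1 Sigma transferase, and among the P450 genes 21 of 40 in clan 3, 7 of 32 in clan 4, 1 of 3 in clan 2 and 4 of 9 in the mitochondrial clan. Of the 56 others, 47 stayed below 1 FPKM in every library, and 3 genes of clan 4, Cyp313a1, Cyp313a2 and Cyp313a5, were listed at 0 throughout. The highest value of a gene that was not expressed was 2.45 FPKM, for Cyp309a1 in stage 8 replicate 2. Just inside the limit were Cyp6d5, Cyp6a17, Cyp6a18, Cyp6d4, Cyp6d2 and Cyp4aa1, each with 3 libraries at 1 FPKM, and just outside it Cyp4d14 and Cyp4e3, each with 2. Cyp6a17 and Cyp6d2 passed the limit through a single group, EcRts stage 10 and wild-type stage 8 in that order, so that a difference between groups comes with their selection. GstD10, Cyp6a14, Cyp6a8, GstD4, Cyp12b2, Cyp6a18 and Cyp6d5 reached 1 FPKM in wild-type libraries only. Cyp4aa1 and Cyp6d4 reached it in stage 10 libraries only, and GstD5 in no wild-type stage 10 library. A difference of these genes from a group without such a library comes in part with their selection. The 14 transferase genes that the files list under CG symbols are described separately near the end.

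A few genes held most of this RNA, as the heat map of the expressed genes shows. Averaged over the 9 libraries, 3 genes exceeded 100 FPKM (GstD1, GstE6 and Cyp6a19), 13 lay between 10 and 100, 18 between 2 and 10, and 15 below 2. Glutathione transferases made up 71.6% of the summed FPKM of the 105 genes and P450 genes 28.4%. GstD1 alone held 41.1% of that sum in EcRts stage 10, 42.9% in wild-type stage 10 and 36.8% in wild-type stage 8. The 105 genes together held 0.157% ± 0.00359 of all summed FPKM in EcRts stage 10, 0.199% ± 0.00631 in wild-type stage 10 and 0.116% ± 0.00217 in wild-type stage 8 (SD, n = 3 libraries).

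**Figure D1:**
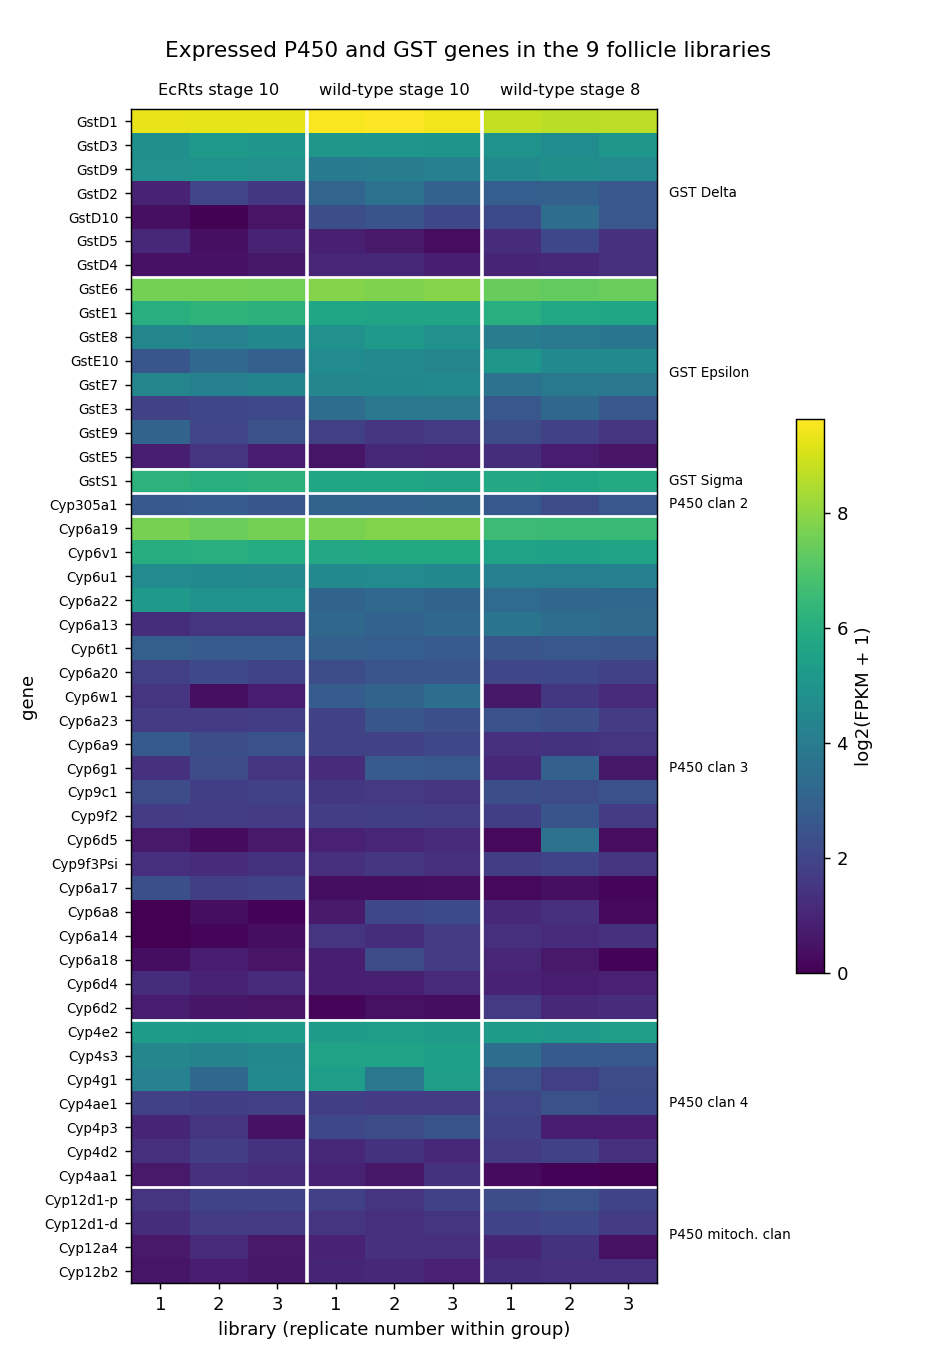
Heat map of the 49 expressed P450 and glutathione transferase genes (rows, by class and then by mean level) in the 9 libraries (columns, by group), with the colour giving log2(FPKM + 1). GstD1, GstE6 and Cyp6a19 are the brightest rows, and GstD10 and Cyp6a14 are darkest in the 3 EcRts columns.

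GstD1 (FBgn0001149; dm3 chromosome 3R, 8193269 to 8194987), the main Delta transferase, which can act on DDT, was the most abundant gene in every library. Its level was 630.1, 618 and 619.9 FPKM in the EcRts stage 10 libraries, 740.1, 789 and 687 FPKM in the wild-type stage 10 libraries, and 422, 399 and 406 FPKM in the wild-type stage 8 libraries. The 3 groups did not overlap, with wild-type stage 10 the highest. GstE6 had 194, 196 and 191 FPKM in EcRts stage 10, 227, 218 and 234 FPKM in wild-type stage 10, and 168, 159.5 and 169 FPKM in stage 8, again without overlap. The clan 3 gene Cyp6a19 had 200.05, 173 and 195 FPKM in EcRts stage 10, 203, 225 and 224 FPKM in wild-type stage 10, and 97.1, 93.8 and 91.6 FPKM in stage 8. All 6 stage 10 values of Cyp6a19 lay above all stage 8 values.

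Of the next 5 genes by level, 3 were highest in EcRts follicles. GstE1 had 64.7, 75.2 and 71.3 FPKM in EcRts stage 10, 49.3, 48.8 and 48.2 FPKM in wild-type stage 10, and 64.3, 53.6 and 50.8 FPKM in stage 8. GstS1, the Sigma transferase, which is abundant in flight muscle and acts on products of lipid peroxidation, had 74.3, 66.4 and 71.5 FPKM in EcRts stage 10, 50.7, 50.2 and 48.5 FPKM in wild-type stage 10, and 55.1, 50.7 and 58.2 FPKM in stage 8. Cyp6v1 of clan 3 had 62.5, 64.3 and 60.9 FPKM in EcRts stage 10, 55.1, 56.5 and 56.8 FPKM in wild-type stage 10, and 45.7, 44.1 and 48.0 FPKM in stage 8. For these 3 genes the EcRts libraries lay above all the others. Cyp4e2 of clan 4 had 39.2, 36.9 and 37.9 FPKM in EcRts stage 10, 39.2, 41.4 and 37.8 FPKM in wild-type stage 10, and 38.4, 36.0 and 39.7 FPKM in stage 8. GstD3 had 27.2, 35.2 and 31.9 FPKM in EcRts stage 10, 33.4, 31.9 and 30.9 FPKM in wild-type stage 10, and 29.1, 25.0 and 33.0 FPKM in stage 8. The groups of Cyp4e2 and of GstD3 overlapped in each comparison.

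The deposited confidence limits imply 27.2 to 33.3 M fragments in EcRts stage 10, 17.5 to 21.3 M in wild-type stage 10 and 18.6 to 21.7 M in wild-type stage 8, so that depth also cannot be told apart from genotype. Over the 49 expressed genes in the 9 libraries, 1 FPKM stood for a median of 36.4 implied fragments. All 6 follicle epithelium markers and all 7 germline markers were present, and EcR itself had 20.6 ± 0.670 FPKM in EcRts stage 10, 21.0 ± 1.36 FPKM in wild-type stage 10 and 19.4 ± 0.446 FPKM in stage 8, a level that does not check a temperature-sensitive protein. Other tissues left traces in some libraries. The 7 midgut markers summed to 486 FPKM in stage 8 replicate 2 and 70.7 FPKM in wild-type stage 10 replicate 1, against 0.186 to 3.12 FPKM in the other 7 libraries. Uro, the urate oxidase of the Malpighian tubule, had 4.15, 4.11 and 0.850 FPKM in EcRts stage 10, 2.77, 13.6 and 10.96 FPKM in wild-type stage 10, and 9.98, 2.70 and 0.538 FPKM in stage 8. The 11 muscle markers summed to 20.3 to 28.4 FPKM in EcRts stage 10, 11.8 to 16.2 FPKM in wild-type stage 10 and 7.82 to 14.4 FPKM in stage 8. None of the 6 fat body and 4 hemocyte markers found reached 1 FPKM in 3 libraries, and He was listed at 0 in all 9. In bulk RNA, fewer cells of a type and less RNA per cell cannot be told apart.

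Several P450 genes varied between libraries of a group, in some libraries together with these tissue markers, as the panels of markers and P450 genes show. Cyp6d5 had 0.588, 0.202 and 0.579 FPKM in EcRts stage 10, 0.861, 1.07 and 1.21 FPKM in wild-type stage 10, and 0.165, 11.5 and 0.244 FPKM in stage 8, the high library being the one with most midgut RNA. Cyp309a1 reached its 2.45 FPKM in that same library. Cyp6g1, a gene known for resistance to DDT and other insecticides, had 1.60, 3.55 and 1.82 FPKM in EcRts stage 10, 1.31, 5.75 and 5.22 FPKM in wild-type stage 10, and 1.13, 6.64 and 0.541 FPKM in stage 8. Cyp6a18 had 0.294, 0.645 and 0.422 FPKM in EcRts stage 10, 0.732, 3.54 and 2.30 FPKM in wild-type stage 10, and 1.06, 0.590 and 0.0573 FPKM in stage 8. In wild-type stage 10 the libraries high for Cyp6g1 and Cyp6a18 were replicates 2 and 3, the ones with most Uro. Other libraries did not match. Wild-type stage 10 replicate 1, with 70.7 FPKM of midgut markers, had the lowest Cyp6d5 of its group. In stage 8, Uro was highest in replicate 1 and Cyp6g1 in replicate 2. In EcRts stage 10, Uro was alike in replicates 1 and 2, where Cyp6g1 had 1.60 and 3.55 FPKM. The part of gut and tubule RNA in these values was not tested.

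**Figure D2:**
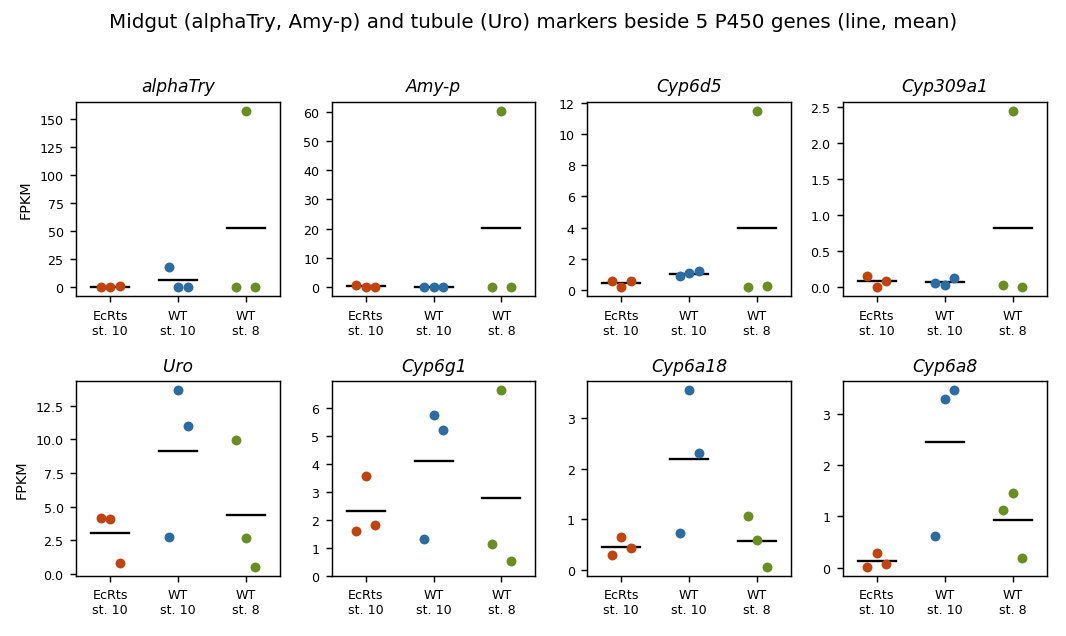
FPKM of 2 midgut markers (alphaTry and Amy-p), the tubule marker Uro and 5 P450 genes in each library (points), by group, with the group mean as a line. Stage 8 replicate 2 stands alone for alphaTry, Amy-p, Cyp6d5 and Cyp309a1, and wild-type stage 10 replicates 2 and 3 stand high for Uro, Cyp6g1, Cyp6a18 and Cyp6a8.

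The comparison of wild-type stage 10 with wild-type stage 8 asks which transcripts change as the follicle grows through mid-oogenesis. With the values as deposited, 18 of the 49 expressed genes were higher at stage 10 and 9 were lower, while 22 did not pass the test (limma, Benjamini-Hochberg adjusted p under 0.05 over all 8255 tested genes). Among all tested genes, 49.1% were called higher, 18.9% lower and 68.1% in either direction, against 36.7% higher and 18.4% lower among the 49. These shares were not compared by a test and move with the scaling, as given below. Among the 31 genes that reached 1 FPKM in all 9 libraries, 14 were higher and 6 lower. The median log2 change was 0.12 for the 49 genes and 0.20 for all tested genes. Changes are differences of mean log2(FPKM + 1), a scale that understates the change of genes near 1 FPKM. Of the 49 genes, 29 had groups that did not overlap, 59.2% against 71.3% of all tested genes.

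Changes of at least 1 on the log2 scale with groups that did not overlap were made by 9.4% of all tested genes. In these families they were rises: 6 genes rose by that much (12.2% of the 49, against 7.14% of all tested genes), and 0 genes fell by as much (against 2.27%). Cyp4s3 of clan 4 had 45.4, 45.7 and 42.7 FPKM in wild-type stage 10 and 10.2, 5.61 and 5.28 FPKM in stage 8, a change of 2.56 (SE 0.20, adjusted p = 1.73e-05). Cyp4g1, which in oenocytes makes the cuticular hydrocarbons by oxidative decarbonylation, had 40.7, 13.5 and 40.2 FPKM in wild-type stage 10 and 4.41, 2.54 and 3.70 FPKM in stage 8, a change of 2.71 (SE 0.48, adjusted p = 0.00133). Both genes were several-fold higher in every stage 10 library, but replicate 2 of wild-type stage 10 was far below the other 2 for Cyp4g1. Cyp6w1 of clan 3 had 6.05, 7.31 and 10.2 FPKM in wild-type stage 10 and 0.528, 1.93 and 1.26 FPKM in stage 8, a change of 2.01 (SE 0.33, adjusted p = 0.000912). Cyp6a19 and GstE8 rose by 1.20 (SE 0.06, adjusted p = 5.2e-06) and 1.08 (SE 0.11, adjusted p = 7.92e-05). GstE8 had 28.3, 35.3 and 28.3 FPKM in wild-type stage 10 and 15.5, 14.0 and 12.3 FPKM in stage 8. Cyp4p3 had 3.21, 3.76 and 4.61 FPKM in wild-type stage 10 and 2.69, 0.703 and 0.668 FPKM in stage 8, a change of 1.14 (SE 0.36, adjusted p = 0.0205), a call lost when wild-type stage 10 replicate 3 was left out (adjusted p = 0.0646), or stage 8 replicate 2 or 3 (0.0685 and 0.0688; 0.00265 to 0.0688 over all replicates left out).

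All 6 follicle epithelium markers, which are eggshell genes, were higher in wild-type stage 10 than in stage 8. Of the 7 germline markers 3 were higher and 4 lower, with summed levels of 1436 to 1554 FPKM in wild-type stage 10 and 1947 to 2154 FPKM in stage 8. The part of either tissue in the changes above was not tested. The oenocyte gene eloF, which did not pass the test, had 1.11, 0.256 and 1.65 FPKM in wild-type stage 10 and 0.271, 0.206 and 0.0601 FPKM in stage 8, with groups that overlapped. The wild-type stage 10 library with least eloF was also the one with least Cyp4g1, and in EcRts stage 10, where eloF had 1.66, 0 and 0.759 FPKM, replicate 2 was lowest for both. Whether some Cyp4g1 RNA came from oenocytes was not tested.

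The other 12 rises were smaller, from 0.28 to 0.97. They included the abundant GstD1 (0.85, SE 0.05, adjusted p = 8.44e-06), GstE6 (0.45, adjusted p = 3.47e-05) and Cyp6v1 (0.28, adjusted p = 0.000438). Among the remaining Epsilon genes, GstE7 averaged 21.9 ± 1.04 FPKM in wild-type stage 10 and 12.9 ± 1.46 FPKM in stage 8, and GstE3 12.1 ± 2.01 FPKM in wild-type stage 10 and 6.19 ± 1.84 FPKM in stage 8. Cyp305a1, the expressed clan 2 gene, averaged 7.36 ± 0.280 FPKM in wild-type stage 10 and 4.63 ± 0.879 FPKM in stage 8. Cyp6u1 averaged 23.1 ± 1.35 FPKM in wild-type stage 10 and 17.0 ± 0.464 FPKM in stage 8. Smaller still were the rises of Cyp6t1 (0.29) and Cyp6a20 (0.43), a gene linked to male aggression, and Cyp6a9 rose by 0.56. The low gene Cyp4aa1 rose by 0.86 (adjusted p = 0.0159), a call lost when wild-type stage 10 replicate 3 was left out (0.0537). Cyp4aa1 reached 1 FPKM in stage 10 libraries only, so this rise comes in part with its selection. Cyp6a18 was called at 0.97 with groups that overlapped (adjusted p = 0.0469). It was called in 6 of 15 alternatives (0.00657 to 0.155) and lost when replicate 2 or 3 of either stage was left out.

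The 9 falls lay between 0.32 and 0.99 on the log2 scale. GstD9 had 15.2, 16.1 and 17.8 FPKM in wild-type stage 10 and 22.9, 26.8 and 24.3 FPKM in stage 8, a change of −0.56 (SE 0.07, adjusted p = 0.000255). Cyp9c1 averaged 1.92 ± 0.0893 FPKM in wild-type stage 10 and 3.99 ± 0.347 FPKM in stage 8, and Cyp4ae1 2.31 ± 0.122 FPKM in wild-type stage 10 and 3.60 ± 0.596 FPKM in stage 8. Of the 4 expressed mitochondrial P450 genes 3 fell, Cyp12b2, Cyp12d1-p and Cyp12d1-d, and 0 rose. Among all tested genes 18.9% were lower and 49.1% higher. Cyp12d1-p and Cyp12d1-d are near-identical tandem copies, so their falls may not be separate. Both copies of Cyp12d1, a gene inducible by foreign compounds, changed by −0.49, and under 15 alternatives Cyp12b2 was called in 5, Cyp12d1-p in 7 and Cyp12d1-d in 13. GstD5, Cyp6d2 and Cyp6a13 completed the falls. Cyp6d2 counts as expressed only through its stage 8 libraries, so its fall comes with that selection. The call of GstD5 was lost when wild-type stage 10 replicate 3 was left out (0.0526), and the call of Cyp6a13 (−0.32, adjusted p = 0.0404) was lost without 5 of the 6 replicates in turn (0.0224 to 0.13 over those 6 fits).

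The scaling between libraries bears on these counts. Over all tested genes the median change of 0.20 became 0.01 under median-of-ratios scaling and under quantile normalization, and 0.28 when values were rescaled without eggshell, yolk and scaffold genes. Higher genes made up 72.2% of all calls as deposited, and 51.8%, 52.0% and 78.1% under those scalings in that order. The 49 genes then split into 14 higher and 15 lower with median-of-ratios scaling, 16 and 14 with quantile normalization, and 18 and 6 with the third scaling, against 18 and 9 as deposited. As shares, 28.6%, 32.7% and 36.7% of the 49 were higher under these scalings, against 32.8%, 31.9% and 54.9% of all tested genes, and 30.6%, 28.6% and 12.2% were lower, against 30.5%, 29.5% and 15.4%. All 6 large rises stayed called under each of these scalings. The rises of Cyp6v1 and Cyp6t1 were lost under median-of-ratios scaling and quantile normalization, and those of Cyp6a20 and Cyp6a18 under median-of-ratios scaling.

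**Figure D3:**
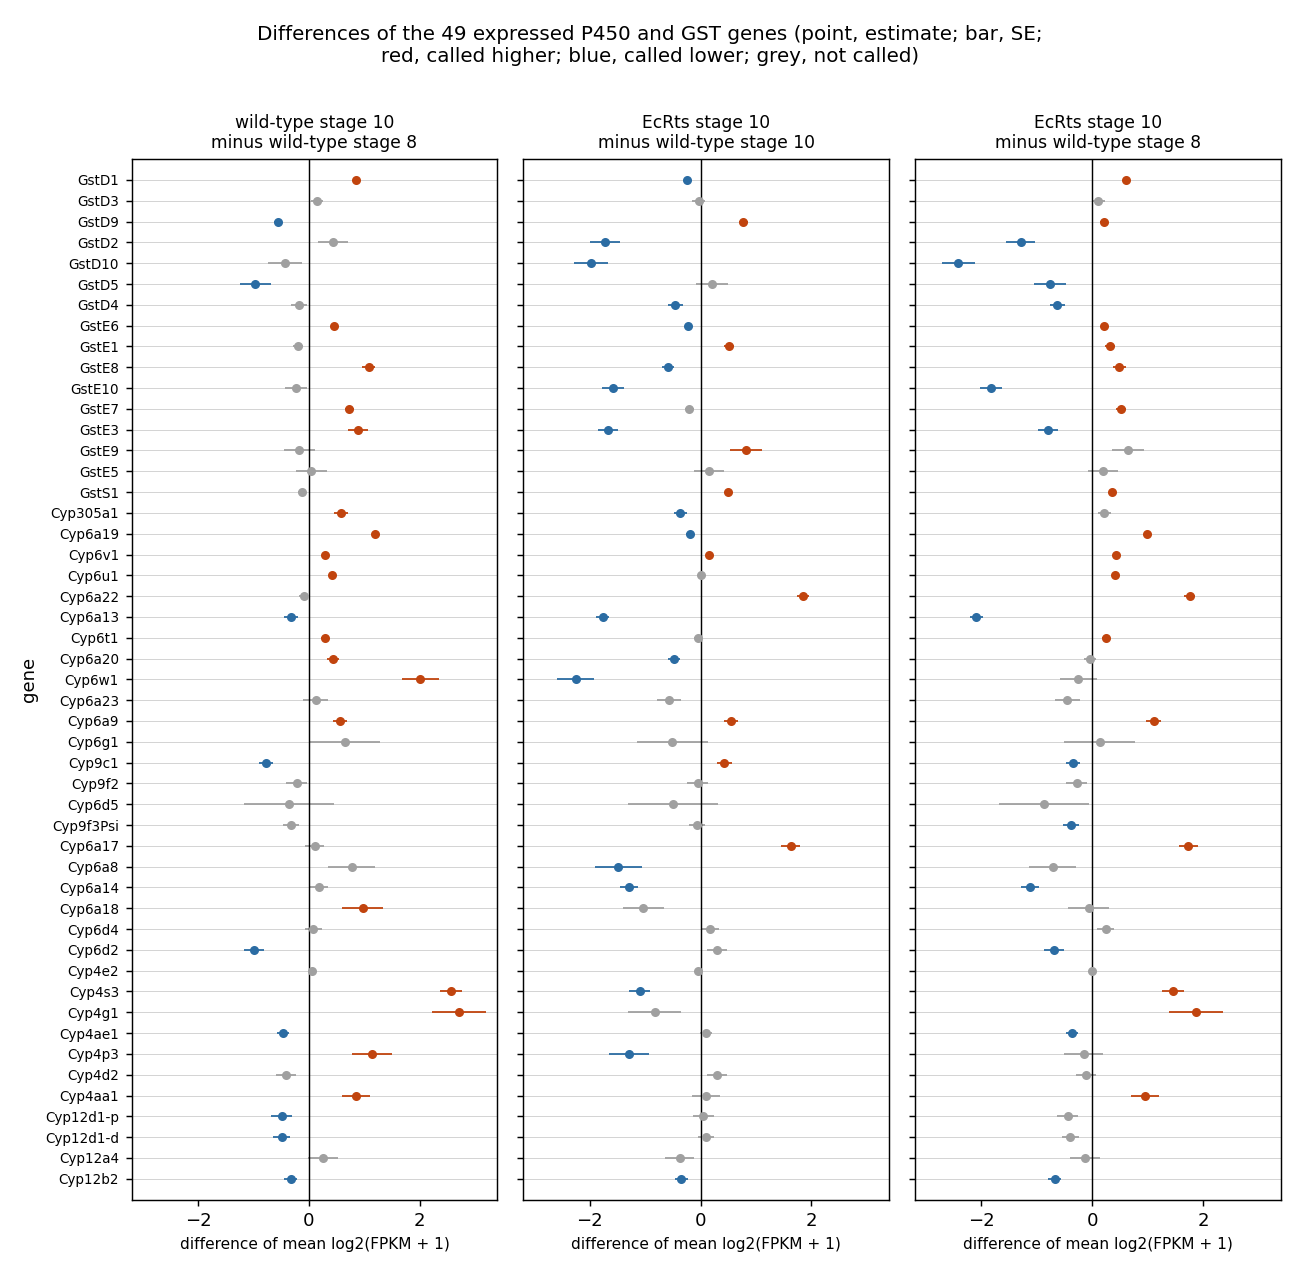
Differences of mean log2(FPKM + 1) for the 49 expressed genes (points, with SE bars) in the 3 comparisons, red where called higher, blue where called lower and grey where not called. The left panel has its largest values at Cyp4g1 (2.71) and Cyp4s3 (2.56), and the middle panel spreads from Cyp6w1 (−2.25) to Cyp6a22 (1.85).

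The comparison of EcRts stage 10 with wild-type stage 10 asks how follicles of the EcR mutant at its restrictive temperature differ from wild-type ones of the same stage. With the values as deposited 9 were higher in EcRts follicles, 18 were lower and 22 did not pass the test, while among all tested genes 9.91% were higher, 33.8% lower and 43.7% called in either direction. By share, 18.4% of the 49 genes were higher and 36.7% lower, and of the 31 genes at 1 FPKM in all 9 libraries 8 were higher and 10 lower. Groups did not overlap for 32 of the 49 genes, 65.3%, against 57.2% of all tested genes. Changes of at least 1 on the log2 scale with groups apart were made by 12 genes, 24.5% of the 49 against 5.79% of all tested genes, and 10 of the 12 were falls (20.4% against 3.02%) and 2 were rises (4.08% against 2.77%). Of these 2 rises, Cyp6a17 entered the 49 through the EcRts libraries alone. Of the 10 falls, GstD10, Cyp6a14 and Cyp6a8 reached 1 FPKM in wild-type libraries only. None of these shares of large changes is therefore read against the background. The median absolute change was 0.45 for the 49 genes and 0.20 for all tested genes. No test compares the list with other genes.

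Both large rises were clan 3 genes that lie next to each other on chromosome 2R. Cyp6a22 (FBgn0013773; dm3 2R, 10759178 to 10760970) had 35.8, 28.9 and 29.8 FPKM in EcRts stage 10 and 7.53, 8.90 and 7.59 FPKM in wild-type stage 10, with 9.44, 8.00 and 8.23 FPKM in stage 8. Every EcRts library was at least 28.9 FPKM, and the wild-type libraries of both stages lay close together, so that the mean was 3.93-fold higher than in wild-type stage 10 (log2 change 1.85, SE 0.10, adjusted p = 1.86e-05). Cyp6a17 (FBgn0015714; dm3 2R, 10761459 to 10763063), which is known for its part in temperature preference, had 4.10, 2.44 and 2.67 FPKM in EcRts stage 10 and 0.274, 0.296 and 0.316 FPKM in wild-type stage 10, with 0.162, 0.322 and 0.131 FPKM in stage 8. It was at or below 0.322 FPKM in all 6 wild-type libraries. Because Cyp6a17 counts as expressed only through its EcRts libraries, these values are a description and no test is given for it.

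The glutathione transferases with large falls were 2 Epsilon and 2 Delta genes. GstE10 (FBgn0063499; dm3 2R, 14284143 to 14285031) had 4.89, 8.68 and 6.73 FPKM in EcRts stage 10 and 23.96, 22.1 and 19.7 FPKM in wild-type stage 10, with 32.9, 23.6 and 22.6 FPKM in stage 8. Its mean was 3.24-fold lower than in wild-type stage 10 (log2 change −1.59, SE 0.20, adjusted p = 0.000715). GstE3 had 2.78, 3.13 and 3.33 FPKM in EcRts stage 10 and 9.81, 13.5 and 13.0 FPKM in wild-type stage 10, a change of −1.68 (SE 0.18, adjusted p = 0.000438). In both genes all EcRts values were under the lowest wild-type value of either stage. GstD2 had 0.955, 3.06 and 1.98 FPKM in EcRts stage 10 and 7.72, 11.1 and 7.11 FPKM in wild-type stage 10, with 6.27, 6.73 and 5.16 FPKM in stage 8 (log2 change −1.73, SE 0.27, adjusted p = 0.00177). GstD10 had 0.311, 0.0458 and 0.437 FPKM in EcRts stage 10 and 4.03, 4.65 and 3.24 FPKM in wild-type stage 10, with 3.44, 9.79 and 5.19 FPKM in stage 8 (log2 change −1.98, SE 0.30, adjusted p = 0.00173). The lowest EcRts value of GstD10 rests on about 1.00 implied fragment, so no linear fold is given for it. GstD10 reached 1 FPKM in wild-type libraries only, so its fall comes in part with its selection.

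The P450 genes with large falls were 4 of clan 3 and 2 of clan 4. Cyp6a13 (FBgn0033304; dm3 2R, 4458004 to 4459652) had 1.38, 1.75 and 1.82 FPKM in EcRts stage 10 and 8.55, 7.14 and 8.33 FPKM in wild-type stage 10, with 11.99, 10.0 and 8.97 FPKM in stage 8. Its mean was 4.86-fold lower than in wild-type stage 10 (log2 change −1.77, SE 0.12, adjusted p = 5.14e-05), the tightest of the falls. Its neighbour Cyp6a14 had 0.0198, 0.0815 and 0.292 FPKM in EcRts stage 10 and 1.76, 1.38 and 2.23 FPKM in wild-type stage 10, with 1.53, 1.21 and 1.60 FPKM in stage 8 (log2 change −1.30, SE 0.16, adjusted p = 0.000715). Cyp6a14 reached 1 FPKM in wild-type libraries only, so this fall comes in part with its selection. Cyp6w1 had 1.76, 0.305 and 0.680 FPKM in EcRts stage 10, against the 6.05 to 10.2 FPKM of wild-type stage 10 and the 0.528 to 1.93 FPKM of stage 8 (log2 change from wild-type stage 10 −2.25, SE 0.33, adjusted p = 0.0015). For Cyp6w1 only the wild-type stage 10 libraries were high.

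Cyp4s3 had 20.7, 18.7 and 21.5 FPKM in EcRts stage 10, below the 42.7 to 45.7 FPKM of wild-type stage 10 and above the 5.28 to 10.2 FPKM of stage 8, so that its 3 groups were fully apart (log2 change from wild-type stage 10 −1.101, SE 0.20, adjusted p = 0.00341). Among the follicle epithelium markers 3 of 6 were also lower in EcRts than in wild-type stage 10, Cp38 by −1.59, Cp36 by −1.36 and Vm32E by −0.79, and their part in the values of Cyp4s3 was not tested. Cyp4p3 had 0.995, 1.77 and 0.384 FPKM in EcRts stage 10, against 3.21 to 4.61 FPKM in wild-type stage 10 (log2 change −1.29, SE 0.36, adjusted p = 0.0205). Cyp6a8, whose enzyme hydroxylates lauric acid, had 0.0178, 0.294 and 0.0732 FPKM in EcRts stage 10 and 0.612, 3.29 and 3.45 FPKM in wild-type stage 10, with 1.13, 1.45 and 0.195 FPKM in stage 8 (log2 change −1.48, SE 0.43, adjusted p = 0.0243). Its 2 high wild-type stage 10 libraries were the ones with most Uro. Cyp6a8 reached 1 FPKM in wild-type libraries only, so its fall comes in part with its selection. The calls of Cyp4p3 and Cyp6a8 were each lost in 4 of the 6 fits without 1 replicate, those without EcRts replicate 1 or 3 or wild-type stage 10 replicate 2 or 3, with adjusted p of 0.0501 to 0.0645 for Cyp4p3 and 0.0634 to 0.0787 for Cyp6a8. Leaving Cyp6a17 aside, the other 9 large changes kept their calls in all 6. Among these 9, GstD10 and Cyp6a14 reached 1 FPKM in wild-type libraries only, so the kept calls add no support for them.

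**Figure D4:**
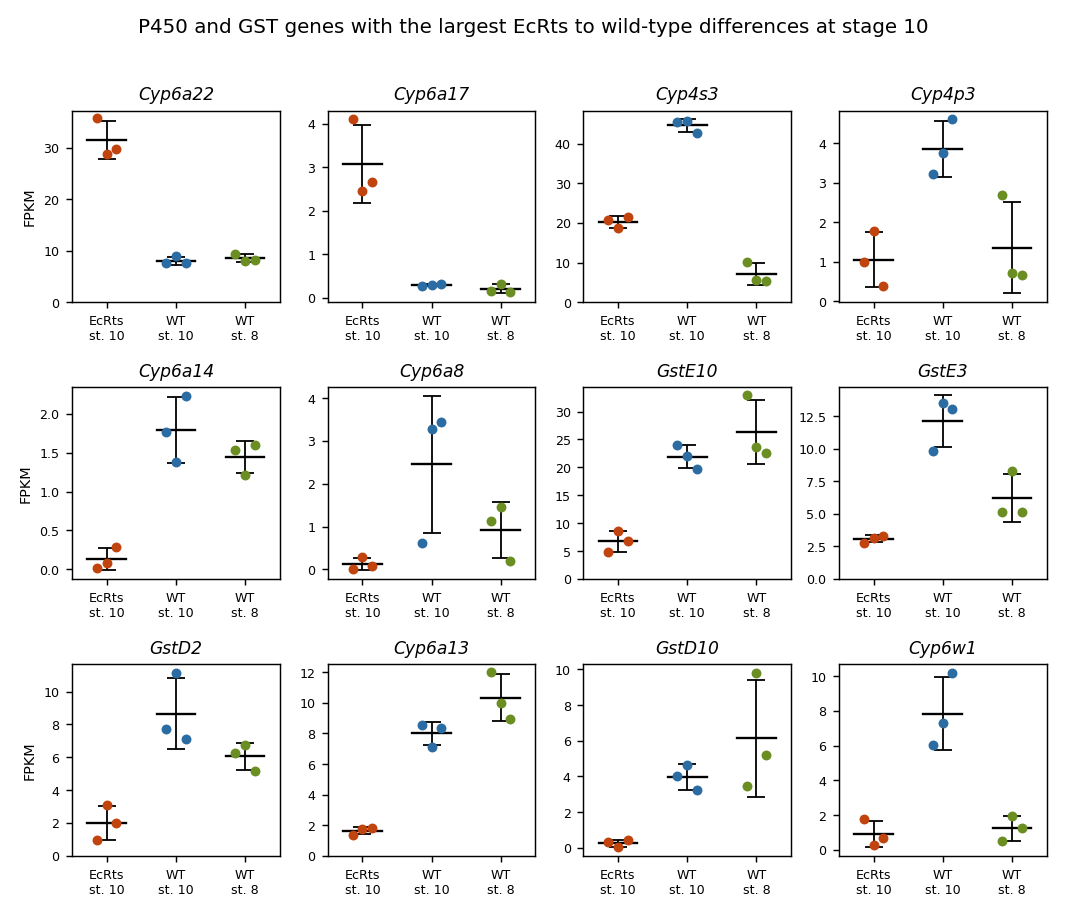
FPKM in each library (points) with group mean and SD (lines and bars) for the 12 genes that changed by at least 1 on the log2 scale between EcRts and wild-type stage 10. Cyp6a22 and Cyp6a17 are high only in the EcRts libraries, and for the other 10 the EcRts libraries lie below every wild-type stage 10 library.

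The other 7 rises in EcRts follicles lay between 0.15 and 0.82. GstD9 averaged 28.6 ± 1.12 FPKM in EcRts stage 10 and 16.4 ± 1.32 FPKM in wild-type stage 10 (log2 change 0.77, SE 0.07, adjusted p = 0.000263). GstE1 and GstS1 rose by 0.52 (SE 0.09, adjusted p = 0.00285) and 0.50 (SE 0.06, adjusted p = 0.000645). Of the 11 muscle markers 3 were likewise called higher in EcRts than in wild-type stage 10 (Mlc1, Mlc2 and up), and their part in the value of GstS1 was not tested. Cyp6a9 averaged 4.70 ± 0.862 FPKM in EcRts stage 10 and 2.88 ± 0.352 FPKM in wild-type stage 10, Cyp9c1 2.97 ± 0.708 FPKM in EcRts stage 10 and 1.92 ± 0.0893 FPKM in wild-type stage 10, and GstE9 4.85 ± 2.21 FPKM in EcRts stage 10 and 2.17 ± 0.343 FPKM in wild-type stage 10. The calls of GstE9 (adjusted p = 0.0463) and Cyp9c1 (adjusted p = 0.0304) each held in 7 of 15 alternatives, with 0.022 to 0.12 for GstE9 and 0.0176 to 0.0781 for Cyp9c1. Both were lost when any of the 6 replicates but EcRts replicate 2 was left out, and the call of Cyp6a9 was lost under quantile normalization (0.0513). Cyp6v1 rose least, by 0.15 (adjusted p = 0.0185), and its call was lost when EcRts replicate 2 or wild-type stage 10 replicate 1 was left out (at most 0.0662 over all alternatives).

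The other 8 falls lay between 0.20 and 0.59. GstE8 averaged 20.02 ± 1.79 FPKM in EcRts stage 10 and 30.6 ± 4.05 FPKM in wild-type stage 10 (log2 change −0.59, SE 0.11, adjusted p = 0.00489), and Cyp6a20 2.94 ± 0.377 FPKM in EcRts stage 10 and 4.47 ± 0.514 FPKM in wild-type stage 10 (log2 change −0.47, adjusted p = 0.0105). The remaining 6, GstD1 (−0.24, adjusted p = 0.00871), GstE6 (−0.22, adjusted p = 0.0034), Cyp6a19 (−0.20, adjusted p = 0.0388), Cyp305a1, GstD4 and Cyp12b2, all lost their calls under median-of-ratios scaling and under scaling without eggshell, yolk and scaffold genes, and with quantile normalization GstD1 was called higher in EcRts (0.21, adjusted p = 0.017). Over all tested genes the median change of −0.12 became −0.00020 under median-of-ratios scaling, −0.01 under quantile normalization and 0.02 under the third scaling, and the share of higher genes among calls was 22.7% as deposited and 51.0%, 49.9% and 56.6% under these. The counts for the 49 genes were 9 higher and 12 lower, 8 and 12, and 9 and 12 under these scalings. Higher genes were then 18.4%, 16.3% and 18.4% of the 49, against 19.4%, 19.8% and 20.1% of all tested genes, and lower genes 24.5% of the 49 each time, against 18.6%, 19.8% and 15.4%. The large changes stayed called under each of them.

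By class, 4 of the 7 expressed Delta genes fell in EcRts follicles and 1 rose, and 4 of the 8 Epsilon genes fell and 2 rose, with GstD1, GstD4 and GstE6 among the falls that other scalings did not keep. Of the 21 clan 3 genes 6 fell and 5 rose, of the 7 clan 4 genes 2 fell and 0 rose, and of the 4 mitochondrial genes Cyp12b2 fell. The falls of Cyp6a19 and Cyp12b2 were likewise not kept under other scalings, and Cyp12b2 was called in 3 of 15 alternatives. Among all tested genes 33.8% were lower and 9.91% higher, and no class was tested against them. Among the genes that did not pass the test were Cyp4g1 (−0.83, SE 0.48, adjusted p = 0.197), with 18.5, 8.29 and 23.6 FPKM in EcRts stage 10, Cyp6u1 (0.01, SE 0.05), Cyp4e2 (−0.05, SE 0.05) and GstD3 (−0.03, SE 0.12). Cyp4g1 was called lower without wild-type stage 10 replicate 2, its low library (−1.34, adjusted p = 0.0363; 0.0363 to 0.509 over all replicates left out). Also below the threshold were GstE7, Cyp6t1, Cyp6a23, Cyp9f2, Cyp9f3Psi, Cyp6d4, Cyp6d2, Cyp6d5, Cyp6g1, Cyp6a18, Cyp4ae1, Cyp4d2, Cyp4aa1, GstD5, GstE5, both Cyp12d1 copies and Cyp12a4, a gene linked to lufenuron resistance. Their estimates ran from −1.03 for Cyp6a18 to 0.30 for Cyp4d2.

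EcRts stage 10 was also set against wild-type stage 8, which shares libraries with both comparisons above. With the values as deposited 17 of the 49 genes were higher in EcRts and 13 lower, 34.7% and 26.5%, against 39.7% and 21.6% of all tested genes (61.4% in either direction). Groups did not overlap for 31 of the 49, 63.3% against 67.7% of all tested genes. Changes of at least 1 with groups apart were made by 20.4% of the 49 and 7.96% of all tested genes, 5 genes upward (10.2% against 5.33%) and 5 downward (10.2% against 2.63%). The rises were Cyp6a22 (1.76), Cyp4g1 (1.88), Cyp4s3 (1.46) and Cyp6a9 (1.11), and Cyp6a17 with the selection described above. Cyp6a9 stood at 5.66, 4.00 and 4.43 FPKM in EcRts stage 10, 2.61, 2.75 and 3.27 FPKM in wild-type stage 10, and 1.44, 1.63 and 1.81 FPKM in stage 8, 3 groups without overlap. The falls were GstD10 (−2.41), Cyp6a13 (−2.09), GstE10 (−1.83), GstD2 (−1.29) and Cyp6a14 (−1.12), all of which were also below wild-type stage 10. GstD10 and Cyp6a14 come in part with their selection, as do GstD4, Cyp12b2 and Cyp6d2 among the 13 lower genes. The same holds for Cyp4aa1 among the 17 higher genes. The shares of large changes are therefore not read against the background. Cyp6w1 and Cyp4p3 did not pass the test here (−0.25, SE 0.33, and −0.15, SE 0.36), and Cyp9f3Psi, which the current annotation calls Cyp9f3 and lists as protein-coding, was called lower in this comparison (−0.39, adjusted p = 0.0437), as it was in 6 of 15 alternatives (0.00793 to 0.181). The 3 scalings, in the order used above, moved the median of all genes to 0.03, 0.02 and 0.33, against 0.11 as deposited, and the share of higher genes among calls to 53.9%, 52.7% and 82.7%, against 64.7%. The 49 genes then split into 15 higher and 15 lower, 15 and 16, and 21 and 9.

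Many of these genes stand side by side in the genome, and neighbours often differed, as the bar plot along the 3 largest runs shows. With gaps of up to 10000 bases allowed, 18 runs held 65 of the 105 genes and 40 stood alone. The run of 8 Cyp6a genes on dm3 chromosome 2R (10759178 to 10776514) had 7 expressed genes. In EcRts against wild-type stage 10 follicles Cyp6a22 and Cyp6a9 were called higher, and Cyp6a19, Cyp6a20 and Cyp6a8 lower. Cyp6a17 was also higher there, but it counts as expressed only through its EcRts libraries. Cyp6a8 reached 1 FPKM in wild-type libraries only, so its fall comes in part with its selection. Cyp6a23 of that run averaged 2.27 ± 0.0958 FPKM in EcRts stage 10, 3.91 ± 1.09 FPKM in wild-type stage 10 and 3.54 ± 1.1001 FPKM in stage 8 and did not pass the test in any comparison, although it was called in 2 of 15 alternatives both against wild-type stage 10 and against stage 8. The run of 10 GstE genes on 2R (14284143 to 14297340) had 8 expressed genes, with GstE1 and, in 7 of 15 alternatives, GstE9 higher and GstE10, GstE3, GstE6 and GstE8 lower in EcRts than in wild-type stage 10. Within that run the mean level over all libraries ranged from 0.925 FPKM for GstE5 to 195 FPKM for GstE6 among the expressed genes. The run of 10 GstD genes on 3R (8190496 to 8206537) had 7 expressed genes, with GstD9 higher and GstD1, GstD2, GstD4 and GstD10 lower in EcRts than in wild-type stage 10. GstD4 and GstD10 reached 1 FPKM in wild-type libraries only, so their falls come in part with their selection. Among all tested genes 9.91% were higher and 33.8% lower in this comparison, and no run was tested against them. In these 3 runs the falls of Cyp6a19, GstE6, GstD4 and GstD1 were called with the values as deposited and under none of the 3 scalings, and GstD1 turned under quantile normalization. Cyp6a13 and Cyp6a14, which both fell, are in a run of 3 on 2R (4451798 to 4459652), with Cyp6a15Psi between them.

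**Figure D5:**
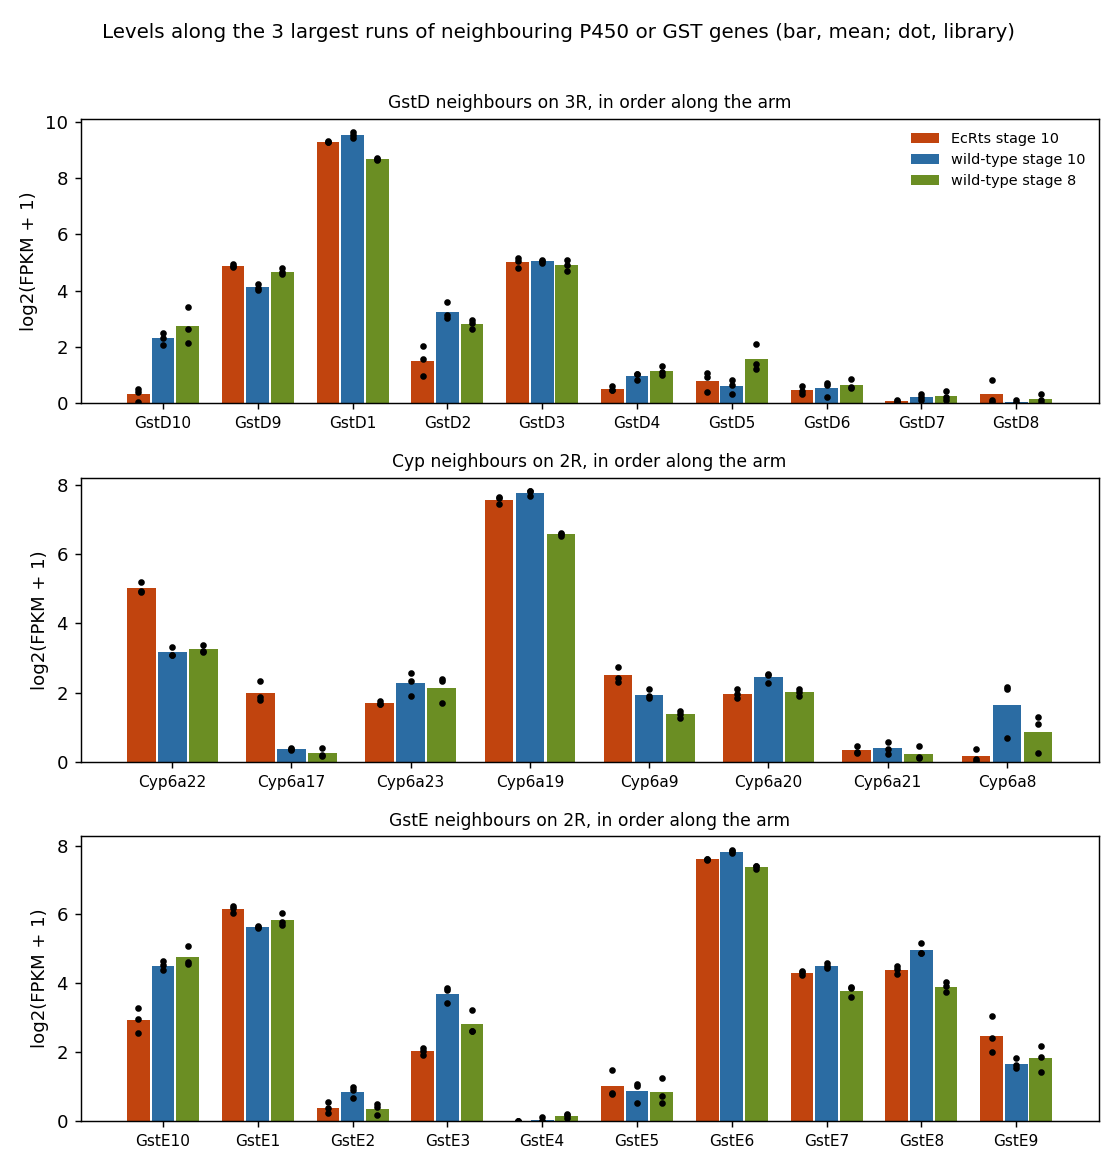
Mean log2(FPKM + 1) by group (bars) with the 9 libraries (dots) for the genes of the 3 largest runs of neighbours, in order along the chromosome arm. GstD1, Cyp6a19 and GstE6 dominate their runs, and EcRts bars stand above the wild-type stage 10 bars for GstD9, Cyp6a22, Cyp6a17, Cyp6a9, GstE1 and GstE9 and below them for GstD10, GstD2, GstE10 and GstE3.

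Some values may share reads with another gene, which was not tested. Cyp12d1-p and Cyp12d1-d are near-identical tandem copies whose ratio lay between 1.21 and 1.52 in all 9 libraries, and how the counting divided reads between them was not tested, so both values are uncertain. Cyp4g1 lies wholly inside CG32816 on the same strand (2277 bases), and that gene averaged 12.1 FPKM in EcRts stage 10, 16.9 FPKM in wild-type stage 10 and 12.5 FPKM in stage 8. Cyp6d5 lies inside rdx on the opposite strand (2255 bases), which averaged 284, 352 and 225 FPKM in the same groups, and without a stated strand setting reads from the 2 genes cannot be told apart. Cyp6a9 overlaps the far more abundant Cyp6a19 by 397 bases on opposite strands, GstD9 overlaps GstD1 by 18 bases on the same strand, and Cyp12b2 overlaps CG42351 by 10 bases. In wild-type stage 10 against stage 8, Cyp6a9 (0.56) and Cyp6a19 (1.20) both rose, while GstD9 (−0.56) fell and GstD1 (0.85) rose. In EcRts against wild-type stage 10, Cyp6a9 and GstD9 rose while Cyp6a19 and GstD1 fell with the values as deposited, falls that were not kept under the other scalings, and the rise of Cyp6a9 was lost under quantile normalization. In EcRts against stage 8 all 4 rose as deposited, a call of GstD9 that held in 8 of 16 alternatives and was lost under median-of-ratios scaling and quantile normalization.

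The partners and relatives of these enzymes were read from lists, whose small counts were not tested against other genes. Among all tested genes 49.1% were higher and 18.9% lower in wild-type stage 10 against stage 8. The shares in EcRts against wild-type stage 10 were 9.91% higher and 33.8% lower. In EcRts against wild-type stage 10 the median changes were −0.21 for 5 electron partners, 0.24 for 5 P450 genes of ecdysone synthesis, −0.12 for 7 genes of glutathione metabolism, 0.16 for 5 UDP-glycosyltransferases and −0.07 for 5 regulators, against −0.12 for all tested genes. The reductase Cpr, which serves the P450 enzymes of the endoplasmic reticulum, averaged 76.6 ± 1.88 FPKM in EcRts stage 10, 81.9 ± 4.94 FPKM in wild-type stage 10 and 76.4 ± 2.47 FPKM in stage 8 and passed no test with the values as deposited. Of 5 tested electron partners 2 were higher in wild-type stage 10 than in stage 8, Cyt-b5 (0.59) and dare, the ferredoxin reductase of mitochondria (0.33), and the same 2 were lower in EcRts than in wild-type stage 10 (−0.21 and −0.33). The EcRts calls of both were lost under all 3 scalings, and dare was called higher at wild-type stage 10 only as deposited and under the third scaling. Among the P450 genes of ecdysone synthesis that carry other names, 4 of 5 tested were lower in wild-type stage 10 than in stage 8 (dib, sad, shd and phm) and 0 were higher, also under all 3 scalings. In EcRts stage 10, dib had 0.794, 0.573 and 0.755 FPKM against 3.49, 2.58 and 2.27 FPKM in wild-type stage 10 (log2 change −1.14, adjusted p = 0.00291). No EcRts library reached 1 FPKM for dib, so this fall comes in part with its selection. In the same comparison sad had 6.65, 7.10 and 7.23 FPKM against 5.49, 4.53 and 4.80 FPKM in wild-type stage 10 (0.43, adjusted p = 0.00251). Both calls stayed under all 3 scalings.

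The 14 transferases listed under CG symbols belong, by the current annotation, to the Epsilon, Theta, Omega, Zeta and Delta classes. Of the 12 tested, 4 were higher and 3 lower in wild-type stage 10 than in stage 8, where 49.1% of all tested genes were higher and 18.9% lower. In EcRts against wild-type stage 10, 0 were higher and 6 lower, where 9.91% of all tested genes were higher and 33.8% lower. The median change of the 12 was 0.05 in wild-type stage 10 against stage 8 and −0.16 in EcRts against wild-type stage 10, where all tested genes had 0.20 and −0.12. CG4688, now GstE14 or noppera-bo, which is needed for ecdysone synthesis, had 1.05, 1.33 and 1.46 FPKM in EcRts stage 10, 4.03, 3.25 and 3.83 FPKM in wild-type stage 10, and 7.73, 5.14 and 7.46 FPKM in stage 8. Its groups were fully apart, and it was lower in EcRts than in wild-type stage 10 by −1.04 on the log2 scale (adjusted p = 0.00138). The other 5 falls, of CG30000 (GstT1), CG30005 (GstT2), CG6673 (GstO2), CG16936 (GstE12) and CG11784 (GstE13), lay between −0.48 and −0.20. CG4688, CG30000, CG30005 and CG6673 were called lower in EcRts under all 3 scalings and CG16936 and CG11784 under none, while 2, 1 and 2 of the 12 became higher. Against stage 8, wild-type stage 10 had 1 higher and 7 lower under median-of-ratios scaling, 2 and 7 under quantile normalization, and 5 and 3 under the third scaling. CG30000 and CG6673 averaged 117 and 106 FPKM over the 9 libraries, more than any listed GstE gene but GstE6.

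Other detoxification genes gave these counts, to be read against the same shares of all tested genes: 49.1% higher and 18.9% lower in wild-type stage 10 against stage 8, and 9.91% higher and 33.8% lower in EcRts against wild-type stage 10. Of 7 tested genes of glutathione metabolism 3 were higher and 1 lower in wild-type stage 10 than in stage 8, and 0 higher and 3 lower in EcRts than in wild-type stage 10 (Trxr-1, gfzf and se). Under all 3 scalings gfzf and se kept their EcRts calls, Trxr-1 lost its own and Ggt-1 was called higher. The glutamate-cysteine ligase genes Gclc and Gclm, which make the glutathione precursor, passed no test as deposited, though both were lower in wild-type stage 10 than in stage 8 under median-of-ratios scaling and quantile normalization. Only 5 of 17 UDP-glycosyltransferase genes were tested. In EcRts against wild-type stage 10 follicles 3 of them were called higher and 0 lower, and the 3 were called higher under each scaling too. Among these 3, Ugt86Di had 2.24, 1.04 and 1.43 FPKM in EcRts stage 10 and 0.157, 0.0635 and 0.121 FPKM in wild-type stage 10. Ugt86Di reached 1 FPKM in every EcRts library and in no wild-type stage 10 library. Its difference thus comes at least in part with its selection, and no test is given for it. Of 5 tested regulators, cnc, maf-S and tgo were higher in wild-type stage 10 than in stage 8. In EcRts against wild-type stage 10, the nuclear receptor gene Hr96 was higher (0.28) and Keap1, whose protein restrains cnc, and tgo were lower (−0.35 and −0.32), except under the third scaling, where neither was called. MRP was the 1 tested efflux transporter of 5, lower in wild-type stage 10 than in stage 8 (−0.42).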

How the data were processed

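Poly(A) RNA of 9 follicle samples in 3 groups was sequenced from TruSeq v2 libraries. Cufflinks 2.02, TopHat2 2.0.7, Bowtie2 2.0.6, CASAVA 1.8.2 and the build dm3 appear in the submitters' processing notes. The authors deposited gene-level FPKM per library with confidence limits and a status. Annotation release and strand setting were not given in the sources used here. Genes were matched to a current annotation for names only (104 of 105). Positions are dm3, counted from 1. Implied fragments were derived from the deposited confidence limits. They were whole within 0.02 for 56.6% to 60.6% of low counts, so no count test was run.

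Genes reaching 1 FPKM in 3 or more libraries were tested, and 102 that had a failed estimate in some library, none of them among the 105, were left out. The 8255 others were fitted as log2(FPKM + 1) in limma 3.58.1 (R 4.3.3), with 1 mean per group over all 9 libraries and an intensity trend. P-values were adjusted by Benjamini-Hochberg within each comparison. The fit was tested on simulated data. All expressed genes of the families are named. Values per library are given for the 8 most abundant and for those called with a change of at least 1 on the log2 scale and groups apart, and genes singled out beside tissue markers were chosen after their values were seen. The genes and lists were chosen with earlier results of these data known. Alternatives were the pseudocount, the filter, 3 scalings, the replicate block, the samples fitted, the variance prior and each replicate left out. No batch is given in the labels. Tables and figures used Python 3.11.15, numpy 2.4.6, pandas 2.3.3 and matplotlib 3.10.9.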

Additional observations from a re-analysis of the deposited data

How the results depend on the processing

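Of the 1086 log2 changes recomputed for 69 results (23 genes in 3 comparisons), 1026 kept their side of the threshold, 42 lost their call, 13 gained one and 5 reversed. A change of direction counted as a reversal only where the gene was called as reported or in the alternative. The 1026 thus include small estimates that changed sign without a call, as for GstD3 in EcRts against wild-type stage 10. The reversals were Cyp4e2 in wild-type stage 10 against stage 8, at −0.16 (adjusted p = 0.0138) after median-of-ratios scaling and −0.15 (adjusted p = 0.0137) after quantile normalization, Cyp4e2 in EcRts against stage 8 with scaling without eggshell, yolk and scaffold genes (0.23, adjusted p = 0.00634), and, in EcRts against wild-type stage 10 with quantile normalization, GstD1 (0.21, adjusted p = 0.017) and Cyp6a19 (0.026, adjusted p = 0.814). The cause was not tested. With a filter of 5 FPKM, which leaves 23 of the 49 genes, 1 gene was lower in wild-type stage 10 than in stage 8 (9 as reported), 5 were higher and 10 lower in EcRts than in wild-type stage 10 (9 and 18), and 4 were lower in EcRts than in stage 8 (13). Falls in wild-type stage 10 against stage 8 numbered 15 with median-of-ratios scaling and 14 with quantile normalization.

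Leaving out 1 replicate at a time gave 15 to 19 rises and 6 to 11 falls in wild-type stage 10 against stage 8, 6 to 8 and 12 to 17 in EcRts against wild-type stage 10, and 15 to 17 and 9 to 14 in EcRts against stage 8. Over all tested genes the total called stayed within 1.5 times (5063 to 5897, 2826 to 3632 and 4426 to 5975 in the 3 comparisons in that order), but its 2 directions did not: in EcRts against wild-type stage 10, 1601, 1632 and 1662 genes were higher and 1537, 1636 and 1272 lower under the 3 scalings (818 and 2790 as reported), and in wild-type stage 10 against stage 8, 2519 were lower under median-of-ratios scaling (1562). Deviations of same-numbered libraries correlated weakly, at −0.04 to 0.22 (9 pairs), against −0.18 to 0.11 for others. These values cannot exclude a pairing, and the main fit used none. With the replicate block there were 17 rises and 7 falls, 9 and 15, and 18 and 10 in the 3 comparisons in that order, and Cyp4g1 was called lower in EcRts than in wild-type stage 10 (−0.83, adjusted p = 0.0299; 0.0299 to 0.509 over all alternatives). Low genes such as GstD10, Cyp6a8 and Cyp6a14 rest on 1.00 implied fragment in their lowest library, and their sizes move with the pseudocount.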
